A study of Mus musculus with 25 samples.

Results

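Acetylation of lysine 27 on histone H3 (H3K27ac) was compared between Scid.adh cells carrying an empty vector and Scid.adh cells carrying a knockout of TCF-1, with 2 peak lists per condition. The 4 lists, of 25 samples in the series, were merged into 49781 regions wherever peaks touched. Each region was then classed by the lists that held it. In the class held by both empty vector lists and neither knockout list there were 3979 regions, 7.99% of the total. The class held by both knockout lists and neither empty vector list had 2402 regions (4.83%), and 23855 regions (47.9%) were held by all 4 lists. The remaining 19545 regions (39.3%) were held by other combinations, mostly by 1 list alone.

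Scid.adh is a mouse T cell line that resembles thymocytes at the DN3 stage, when T cell precursors without CD4 or CD8 rearrange the T cell receptor beta chain. The study asked how TCF-1 takes part in the folding of the genome in such cells, and used chromatin immunoprecipitation followed by sequencing of this line and of fibroblasts. The empty vector samples are titled wild type in the labels and their treatment is given as an empty vector. The knockout samples are labelled TCF1 KO, and whether they are 1 clone or several, how the gene was cut, and whether replicates came from separate cultures are not stated in the sources at hand. P-values therefore measure only the spread between these lists, which may be technical.

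TCF-1, encoded by Tcf7, is a DNA-binding protein of the HMG-box family that starts and maintains the T cell programme and can act with beta-catenin at targets of Wnt signalling. H3K27ac is laid down mainly by the acetyltransferases p300 and CBP and marks active promoters and enhancers. Long stretches of it lie over genes that define a cell's identity, and in early T cells many such stretches are bound by TCF-1, RUNX, ETS and E proteins.

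The promoter sequences below are from RefSeq (GRCm38.p6), each the 250 bases before an annotated start, 5′ to 3′ along the gene's own strand. Promoters that lay in a region of the empty vector class are shown first. Those of Agbl3, Srebf1 and Lrif1 are the 3 in which the same region also held a TCF-1 site, Lef1 encodes the closest relative of TCF-1, and Ifitm1 had no acetylation left in the knockout. Ttc12 and Cd8a stand for the knockout class. Capitals mark any match to 5 motifs searched on both strands, namely CTTTGA for TCF/LEF proteins, TGTGGT for RUNX proteins, CCGGAA for ETS proteins, CAGCTG for E proteins, which reads the same on both strands, and AGATAA for GATA proteins. No match in these stretches overlapped another.
Agbl3 (chr6:34780182-34780431, plus strand): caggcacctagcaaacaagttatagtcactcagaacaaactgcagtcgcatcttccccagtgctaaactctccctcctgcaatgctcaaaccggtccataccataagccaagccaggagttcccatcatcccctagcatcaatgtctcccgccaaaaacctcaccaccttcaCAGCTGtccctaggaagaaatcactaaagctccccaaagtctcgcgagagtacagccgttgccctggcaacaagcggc
Srebf1 (chr11:60210472-60210721, minus strand): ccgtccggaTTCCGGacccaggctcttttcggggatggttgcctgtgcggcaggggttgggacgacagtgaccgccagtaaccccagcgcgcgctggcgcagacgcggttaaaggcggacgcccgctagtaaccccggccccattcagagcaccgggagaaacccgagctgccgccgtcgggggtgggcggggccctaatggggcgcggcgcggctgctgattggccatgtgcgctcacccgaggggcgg
Lrif1 (chr3:106684737-106684986, plus strand): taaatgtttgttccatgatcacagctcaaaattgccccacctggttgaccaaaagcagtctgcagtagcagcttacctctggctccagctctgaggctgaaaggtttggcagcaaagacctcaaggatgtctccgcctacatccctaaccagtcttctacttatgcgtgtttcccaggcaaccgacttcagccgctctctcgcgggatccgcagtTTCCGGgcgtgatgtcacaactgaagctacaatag
Lef1 (chr3:131156044-131156293, plus strand): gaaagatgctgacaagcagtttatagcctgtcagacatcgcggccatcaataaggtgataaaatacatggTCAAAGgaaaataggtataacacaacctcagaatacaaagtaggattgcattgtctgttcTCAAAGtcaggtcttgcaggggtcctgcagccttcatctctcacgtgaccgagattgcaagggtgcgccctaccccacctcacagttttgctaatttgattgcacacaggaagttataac
Ifitm1 (chr7:140967826-140968075, plus strand): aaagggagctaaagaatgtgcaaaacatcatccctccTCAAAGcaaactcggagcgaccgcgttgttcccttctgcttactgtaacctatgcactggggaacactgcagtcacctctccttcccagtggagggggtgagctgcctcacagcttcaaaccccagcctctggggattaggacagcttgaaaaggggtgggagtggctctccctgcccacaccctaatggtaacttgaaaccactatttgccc
Ttc12 (chr9:49486226-49486475, minus strand): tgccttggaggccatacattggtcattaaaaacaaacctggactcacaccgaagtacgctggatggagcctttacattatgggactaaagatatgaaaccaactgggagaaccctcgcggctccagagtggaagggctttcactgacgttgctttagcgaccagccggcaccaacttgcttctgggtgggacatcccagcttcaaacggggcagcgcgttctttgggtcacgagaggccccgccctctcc
Cd8a (chr6:71373177-71373426, plus strand): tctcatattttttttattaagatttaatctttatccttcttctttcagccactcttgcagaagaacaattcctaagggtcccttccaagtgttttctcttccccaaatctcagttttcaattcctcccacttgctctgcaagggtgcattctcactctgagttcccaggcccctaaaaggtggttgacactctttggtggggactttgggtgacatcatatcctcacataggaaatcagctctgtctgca

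The TCF/LEF letters stood 180 and 120 bases before the Lef1 start and 213 bases before the Ifitm1 start, both of which are starts inside the annotated gene. The Agbl3 stretch held an E protein match 78 bases before the start. The ETS letters stood 241 bases before a start inside Srebf1 and 35 bases before that of Lrif1. The full Lrif1 window, which runs to 50 bases past the start, also held the TCF/LEF letters, beyond the printed stretch. In the Ttc12 and Cd8a stretches none of the 5 motifs occurred. Over the full windows, which run to 50 bases past the start, CTTTGA occurred in 15.0% of the 253 windows in empty vector class regions and in 14.1% of the 64 windows in knockout class regions. The share was 12.2% of the 11432 windows in regions of all 4 lists and 16.0% of all 32851 windows. CCGGAA, the ETS core, occurred in 11.1% and 20.3% of the windows in the empty vector and knockout classes, against 30.2% of those in regions of all 4 lists and 14.9% of all windows. For TGTGGT, the RUNX letters, the shares in the same order were 22.5%, 15.6%, 12.9% and 16.8%. The E protein letters CAGCTG occurred in 18.2%, 25%, 14.7% and 16.3%, and the GATA letters AGATAA in 10.3%, 6.25%, 6.36% and 11.2%. The 64 windows of the knockout class are few, and none of these shares was tested.

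Peaks numbered 38827 and 42180 with the empty vector against 36544 and 37629 with the knockout, and covered 89.5 and 91.6 Mb against 89.8 and 91.2 Mb. Read totals were not used here, so the depth behind a list is unknown. The 9 markers of DN3-stage T cells (Ptcra, Il2ra, Rag1, Cd3e, Notch1, Bcl11b, Gata3, Lck and Thy1) were acetylated within the gene body in all 4 lists. Among markers of other cell types, Itgam was acetylated in its body in all 4 lists (11.4 and 12.8 kb against 15.7 and 16.1 kb), and Cd79a in the empty vector lists only (0.469 and 0.788 kb). Within the same panel, Pax5, Ebf1, Csf1r, Lyz2, Mpo, Ncr1, Klrb1c, Eomes, Col1a1, Col3a1, Pdgfra and Dcn had no acetylated base in the body in any list. Outside that panel some genes known from other lineages did carry acetylation, among them Zbtb16, Rora, Nkg7 and Pdgfrb, which are described with their lists. A mark lost from some of the cells and a weaker mark in every cell cannot be told apart in such lists.

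**Figure D1:**
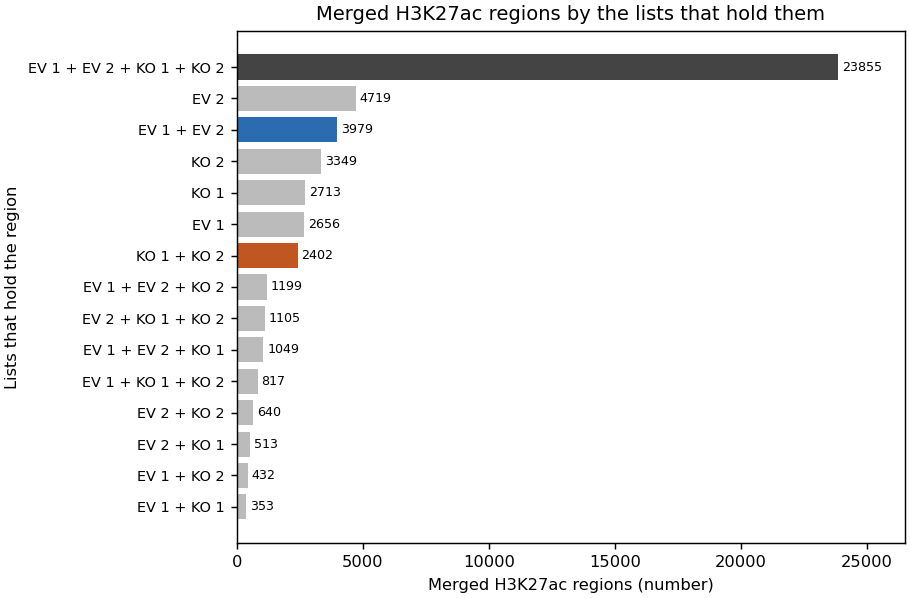
Number of merged H3K27ac regions (x axis) held by each combination of the empty vector (EV) and knockout (KO) lists (y axis). Regions of all 4 lists number 23855, those of both EV lists alone 3979 (blue) and those of both KO lists alone 2402 (orange).

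The 2 restricted classes were made of short regions. Their median widths were 948 bp in the empty vector class and 1030 bp in the knockout class, against 2937 bp for regions of all 4 lists. They covered 4.78 and 3.02 Mb in all, against 103.2 Mb. Within its own list, a peak's place by the deposited −log10 q-value was also lower: the median region reached the 21.1 percentile in the empty vector class, 17.5 in the knockout class and 63.8 in the class of all 4 lists. The empty vector class was 1.66 times as large as the knockout class, but the direction turned without KO 1 (0.829) and without KO 2 (0.947), and the ratio was 2.81 without EV 1. Leaving out a list enlarges the class of its condition by construction. With each list cut to the length of the shortest, the counts were 3102 and 2859, a ratio of 1.08, so the excess was smaller with lists of equal length.

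Empty vector class regions lay less often inside a gene body (47.3%) than knockout class regions (63.2%) or regions of all 4 lists (71.5%), and 36.6% of them, against 25.7% and 19.9%, lay more than 10 kb from any protein-coding gene. They lay over a promoter window more often than knockout class regions, in 5.20% against 2.16%, while regions of all 4 lists did so in 33.5%. Among 17491 protein-coding genes with a promoter window, 145 (0.829%) had one in an empty vector class region and 28 (0.160%) in a knockout class region. For 124 of the 145 no other window of the gene lay in a knockout peak, and for 24 of the 28 no other window lay in an empty vector peak. A window lay in a peak of the empty vector lists for 7992 (45.7%) and 8033 (45.9%) of the 17491 genes, and in a peak of the knockout lists for 7845 (44.9%) and 7857 (44.9%). In a region of all 4 lists it lay for 7902 genes (45.2%). On single chromosomes the empty vector class made up between 49.5% (chromosome 15) and 79.6% (chromosome X, 86 against 22) of the regions in the restricted classes, leaving aside chromosome Y.

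The restricted regions that ranked highest were mostly promoters in the empty vector class and mostly lay elsewhere in the knockout class. The 10 highest-ranked regions of the empty vector class were named by the nearest gene, Smoc1, Taf9b, Lpgat1, Inpp1, Crtap, Agbl3, 2700081O15Rik, Zbtb4, Hmgn1 and Atxn7l1, and 9 of the 10 lay over a promoter of that gene. At Taf9b, which encodes a subunit of the general transcription factor TFIID, chrX:106218946-106220304 was covered over 1246 and 1359 bp in the empty vector lists and had no peak in the knockout lists. Hmgn1, a nucleosome-binding protein, had 1497 and 1519 bp at chr16:96126832-96128365 and none in the knockout. The top 10 of the knockout class included regions nearest to Nell1, Ttc12, Acbd3, Btbd11, Stk26, Cpne2, Nfatc1, Pgbd1 and Dgkg, and 3 of the 10 covered a promoter of the nearest gene (Ttc12, Cpne2 and Pgbd1). The Ttc12 region, chr9:49481055-49495322, was the widest of the class at 14268 bp. It covered the promoter printed above and reached into the body of the gene, which encodes a protein for assembly of dynein arms.

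TCF-1 binding, measured in the empty vector cells, was rare in both restricted classes. A TCF-1 site here is a region held by both TCF-1 lists, of which there were 3107. Of these, 3006 (96.7%) lay in H3K27ac regions of all 4 lists, 8 (0.257%) in the empty vector class and 7 (0.225%) in the knockout class. Counted over regions, 0.201% of the empty vector class and 0.291% of the knockout class held a site, against 11.9% of regions of all 4 lists. Among regions 1000 to 2000 bp wide the shares were 0.301%, 0.563% and 4.31%. With sites of either TCF-1 list the shares were 0.930%, 0.791% and 22.6%. Among peaks at or above the median q-value of their list they were 1.22%, 0.960% and 18.5%. The order of the 2 restricted classes thus changed with the threshold. Without EV 1 the empty vector class held 0.0986%, and without KO 1 or KO 2 the knockout class held 0.130% or 0.108%.

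The 8 regions of the empty vector class with a TCF-1 site lay at Prdm1, Srebf1, Lmo7, Grhl2, Lrif1, Smr3a, Agbl3 and, 3586 bp outside the gene, Lef1. Prdm1, which encodes the repressor Blimp-1, had its site in chr10:44482865-44483870, covered over 957 and 988 bp with the empty vector against 0 in the knockout. At Srebf1, a regulator of lipid synthesis, the region chr11:60207488-60213683 ran over 6196 and 4571 bp in the empty vector lists. The Lef1 region, chr3:131105169-131106711, was covered over 1254 and 1534 bp. In the knockout class the 7 regions with a site lay at or nearest to Pigr, Smyd2, Pmel, Cdkal1, Lpp, Dynlt1b and Gbf1. The one in Pigr, the receptor that carries polymeric immunoglobulin across epithelia, covered 1472 and 1328 bp of chr1:130837898-130839369 in the knockout lists. The TCF-1 antibody was not used in knockout cells among the samples used here, so no count of sites after the knockout was made.

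**Figure D2:**
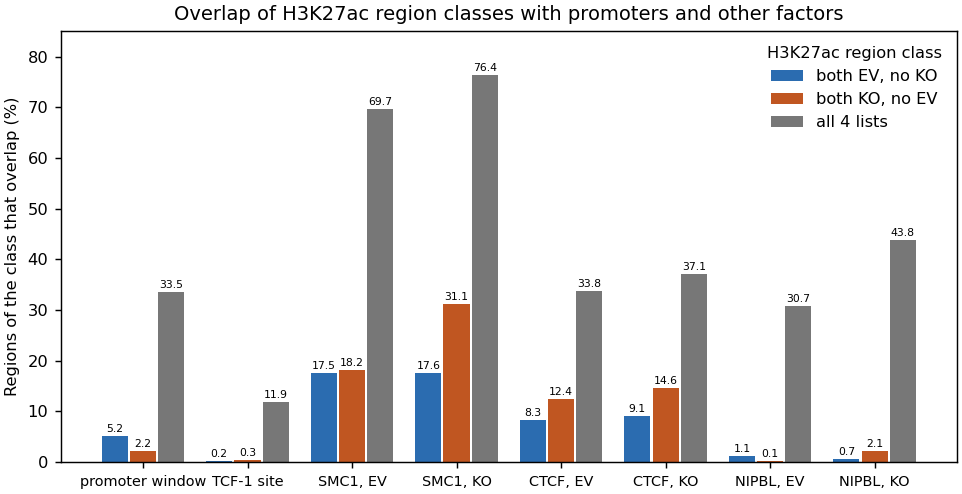
Share of H3K27ac regions (y axis, percent) in each class that overlap a promoter window, a TCF-1 site, or SMC1, CTCF or NIPBL regions held by both lists of the condition named (x axis). Regions of all 4 lists (grey) overlap each feature more often than either restricted class, at 33.5% for promoters and 11.9% for TCF-1 sites.

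Cohesin peaks overlapped the knockout class more often in the knockout lists. SMC1, a core subunit of the cohesin ring, had a peak in 22.1% and 27.1% of knockout class regions in the empty vector lists and in 36.4% and 38.3% in the knockout lists. Both knockout lists were higher, by 12.8 percentage points on average, with an exact permutation p of 0.33, the smallest that 2 lists against 2 allow. In the empty vector class SMC1 overlapped 22.6% and 27.2% of the regions in the empty vector lists against 22.0% and 21.9% in the knockout lists, a difference of -2.98 points (exact permutation p = 0.33). In regions of all 4 lists the shares were 74.1% and 77.8% against 80.0% and 81.2%. The SMC1 lists of the knockout were longer in themselves, at 88886 and 96416 peaks against 70438 and 77587, and the part this played was not tested.

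For CTCF, which halts cohesin at loop ends, the values lay closer together. Its peaks overlapped 8.34% and 10.1% of empty vector class regions with the empty vector against 10.1% and 9.47% in the knockout. In the knockout class the shares were 11.9% and 14.2% against 15.6% and 14.4% (exact permutation p = 0.33). NIPBL, which loads cohesin on chromatin, overlapped 1.99% and 3.47% of empty vector class regions in the empty vector lists against 4.35% and 1.11% in the knockout lists. In the knockout class the shares were 0.458% and 2.16% against 11.5% and 3.41%. These did not overlap but were uneven, and the first knockout list of NIPBL was by far the longest (23951 peaks, against 9206, 15232 and 14107 in the others). Regions of all 4 lists overlapped NIPBL in 32.6% and 47.5% against 64.2% and 45.1%.

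The summed length of regions held by all 4 lists differed little between conditions, while single regions went both ways. The regions covered 81.6 and 82.0 Mb in the empty vector lists against 83.0 and 83.7 Mb in the knockout lists. The knockout mean was higher by 1.96% (81.8 ± 0.240 against 83.4 ± 0.496 Mb, SD, n = 2), with both knockout lists above both others and an exact permutation p of 0.33. Of the 23855 regions, 1514 were more than 2-fold narrower in the knockout by the means of log2 length and 1595 more than 2-fold wider. Among the shared regions with a TCF-1 site the mean covered length was 5288 and 5268 bp with the empty vector against 5281 and 5302 bp with the knockout, which overlap. Those without a site measured 3170 and 3189 bp against 3239 and 3269 bp. Within 1 kb of the centre of TCF-1 sites the covered length was 1801 and 1799 bp of 2000 bp with the empty vector against 1793 bp in each knockout list, a difference of -6.80 bp (exact permutation p = 0.33). Covered length cannot exceed the 2000 bp of the window and was near that limit in every list, so it says little about the strength of the mark there.

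**Figure D3:**
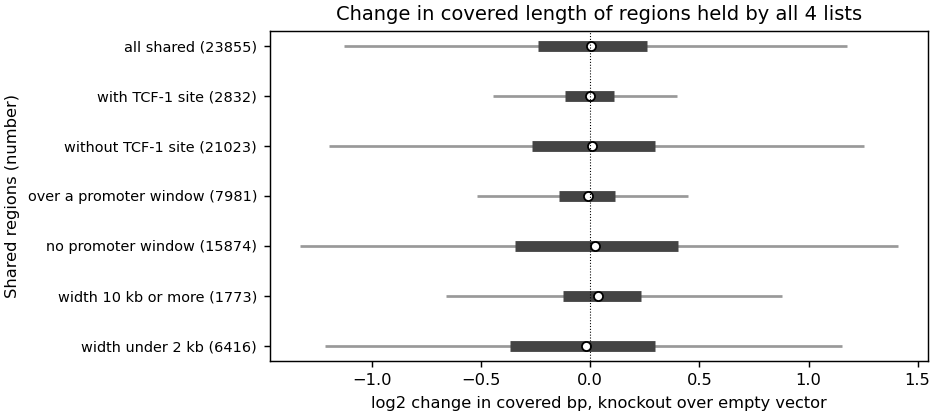
Change in covered length of regions held by all 4 lists (x axis, log2 of knockout over empty vector), for subsets with the number of regions in brackets (y axis). Points are medians, thick bars run from the 25th to the 75th percentile and thin lines from the 5th to 95th percentiles. The medians lie near 0 and the spread is narrowest for regions with a TCF-1 site. Lists of the same condition also differed less at regions with a site than at regions without one.

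Single shared regions were compared with limma on log2 covered length. In the knockout, 446 of 23855 regions were narrower (1.87%) and 522 wider (2.19%) at an adjusted p under 0.05. For 6391 regions (26.8%) both knockout values were below both others, and for 6648 (27.9%) above. Leaving out any one of the 4 lists left no region past the threshold in limma, with 1680 to 2903 narrower and 2221 to 2895 wider at an unadjusted p under 0.05. The spread of the log2 change was narrower for the 2832 regions with a TCF-1 site, where 23 (0.812%) were narrower and 22 (0.777%) wider. Lists of the same condition also differed less there, by a median absolute log2 difference of 0.0967 (empty vector) and 0.108 (knockout). Without a site these medians were 0.193 and 0.208, and their part in the spread was not tested. The region at the promoter of Tox2 (chr2:163220971-163242733), which encodes an HMG-box factor, was covered over 19698 and 21013 bp with the empty vector against over 1170 and 1534 bp in the knockout. Its log2 change was -3.92 (SE 0.159, adjusted p = 0.0295). In Cdhr3, a cadherin-related gene, chr12:33032294-33051654 went from 19361 and 18423 bp to 1378 and 1480 bp. Among the wider regions, chr2:27206280-27219274 in Sardh, the mitochondrial sarcosine dehydrogenase gene, went from 1045 and 868 bp to 12075 and 12308 bp, a log2 change of 3.68 (SE 0.129, adjusted p = 0.0295). Other narrower regions with the lowest p lay at or nearest to Lrrc27, Atf7ip, Olfr525, Atxn7l1, Tec, Pfkp and Tdpoz2. The other wider ones lay at or nearest to Disp1, Osbpl2, Btbd9, Arhgap19, Med9, Thbs4, Med27, Gm1070 and Fbxo32. None of the 20 regions, the 10 with the lowest p in each direction, held a TCF-1 site.

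The covered length within each gene body and 10 kb on either side gave every gene a value in each list. Of 21883 protein-coding genes, 12779 had a mean of at least 500 bp and were tested with limma on log2(bp + 500). Acetylation was lower in the knockout at 1079 genes (8.44%) and higher at 917 (7.18%) at an adjusted p under 0.05. Both knockout values lay below both others at 3987 genes (31.2%) and above at 3527 (27.6%). Fits without 1 list called fewer genes: 114 to 287 lower and 92 to 184 higher. Of the 1079 and 917 genes, 82 and 52 were called in every one of these 4 fits. The gene classes and the gene calls rest on the same peaks and do not support each other. Windows of neighbouring genes overlap, so a stretch of acetylation can count for several genes.

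Tcf7 itself, at chr11:52246527-52283383, had 35.9 and 37.3 kb with the empty vector against 36.4 and 36.7 kb in the knockout, with 6 shared regions and 2 TCF-1 sites. The values overlap, and acetylation of the locus does not check whether the protein is absent.

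Tox2 lost most of its acetylation. Its window held 83.3 and 90.4 kb in the empty vector lists against 5.16 and 6.12 kb in the knockout lists, with 15 empty vector class regions and none of the knockout class. The log2 change was -3.83 (SE 0.102, adjusted p = 0.000614), and the call held without any one list. Several wide regions of the empty vector class lay in the same gene, the widest 11159 bp (chr2:163315685-163326843). CTCF peaks in this window numbered 6 and 8 with the empty vector against 9 and 8 in the knockout, and SMC1 peaks 8 and 14 against 10 and 12.

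Limch1, which regulates non-muscle myosin, held the most empty vector class regions, 18, and went from 100.5 and 104.9 kb to 34.0 and 35.3 kb. Rora, a nuclear receptor gene needed for innate lymphoid cells, held 16 and went from 151.3 and 166.3 kb to 103.6 and 93.6 kb (log2 change -0.69, SE 0.0710, adjusted p = 0.00694). Itpr1, an intracellular calcium channel gene, had 13. Myo1e, a class I myosin gene, had 12, and fell from 28.0 and 32.3 kb to 0.915 and 0.398 kb, so that little of the locus stayed acetylated. St6gal1 (a sialyltransferase) had 11. Tet2, an enzyme of DNA demethylation, held 10, with 26.8 and 31.3 kb against 2.58 and 3.77 kb (log2 change -3.02, SE 0.184, adjusted p = 0.00258). Maml2 and Dgkg had 10 each. In the fits without 1 list, Limch1, St6gal1 and Maml2 were called in all 4. Myo1e, Tet2 and Dgkg were called only in some of these fits, and Rora and Itpr1 in none.

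Among the genes with the lowest p were Cdhr3, Ifitm1, Pde9a, Ifitm6, Ifitm3, Urah, Rtkn2, Gnaq and Padi1, each called without any one list. Of these, Cdhr3 and Rtkn2 kept some acetylation and the others had no acetylated base left in the knockout. Ifitm3, which encodes an interferon-induced protein that blocks entry of viruses, had 11.5 and 13.6 kb in the empty vector lists and none in the knockout lists. Ifitm1 had 13.3 and 14.7 kb and Ifitm6 11.9 and 13.3 kb, again with 0 in both knockout lists, but the windows of Ifitm3 and Ifitm6 overlap. Pde9a, a cyclic GMP phosphodiesterase gene, had 15.5 and 13.7 kb against 0. Cdhr3 had 31.8 and 32.4 kb against 1.38 and 1.48 kb, and Rtkn2 had 17.9 and 17.5 kb against 1.91 and 1.89 kb.

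The Ifitm genes lie in a stretch of chromosome 7 with many empty vector class regions. From position 139000001 to 142000000 there were 69 empty vector class regions, 4 knockout class regions and 67 of all 4 lists. H3K27ac peaks numbered 180 and 184 with the empty vector against 93 and 97 in the knockout. In the same stretch, CTCF peaks numbered 103 and 135 against 142 and 124, and SMC1 peaks 228 and 230 against 255 and 261. The bounds of this stretch were chosen after the values were seen. All 20 genes selected for loss by p or by number of regions had a CTCF peak and an SMC1 peak in both knockout lists. Of the 18 genes selected for gain in the same way, 17 had a CTCF peak and 18 an SMC1 peak in both knockout lists. The share over all genes was not counted, so these counts are not particular to the genes with losses.

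Gains in the knockout reached other genes. Ttc12 had no acetylation with the empty vector against 14.0 and 14.3 kb in the knockout. Btbd11 had 0 against 9.36 and 8.81 kb. Sardh went from 5.43 and 4.95 kb to 40.3 and 40.6 kb (log2 change 2.85, SE 0.0768, adjusted p = 0.000614). Cd38, which encodes a surface enzyme that breaks down NAD, went from 1.55 and 1.58 kb to 11.9 and 12.7 kb, with 2 knockout class regions. Its promoter went the other way, in an empty vector class region (chr5:43868806-43869678) covered over 847 and 768 bp with the empty vector and over 0 bp in both knockout lists. Adamts17, a secreted metalloprotease gene, rose from 13.7 and 14.3 kb to 55.1 and 57.8 kb and held 12 knockout class regions. Syt6, Gjb6, Disp1, Smim6 and Gpr45 completed the 10 with the lowest p, and each of the 10 was called without any one list. These 10 were picked by p for a gain, so the lack of overlap between conditions follows from how they were picked. Over all genes tested, both knockout values lay above both others at 27.6%.

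The genes with most regions were long in both restricted classes. They ran from 81.5 to 734.8 kb in the empty vector class and from 135.3 to 1037 kb in the knockout class. Of knockout class regions Btbd9 and Hs6st3 had 18 each, Lrmda 17, Exoc4 14, Adamts17 12, Med27 and Mgmt 11, Lpp 10, Glis1 9 and Disp1 8. At Btbd9 coverage went from 24.9 and 28.8 kb to 91.3 and 96.1 kb. At Mgmt, a DNA repair gene, it went from 49.0 and 55.8 kb to 130.1 and 133.4 kb, and at Exoc4, a subunit of the exocyst, from 130.4 and 143.2 kb to 226.1 and 245.1 kb. Of these genes, Btbd9, Mgmt, Adamts17 and Disp1 were called in every fit without 1 list. Hs6st3, Lrmda, Med27, Lpp and Glis1 were called only in some of these fits, and Exoc4 in none. SMC1 peaks over Mgmt numbered 21 and 19 with the empty vector against 51 and 49 in the knockout. Those over Hs6st3 numbered 34 and 17 against 62 and 61. Over the 18 genes named for gains, SMC1 peaks summed to 372 and 325 against 653 and 703. Over the 20 genes selected for losses they summed to 309 and 283 against 329 and 349. SMC1 peaks were thus more numerous in both knockout lists in each set, in lists that were also longer overall.

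**Figure D4:**
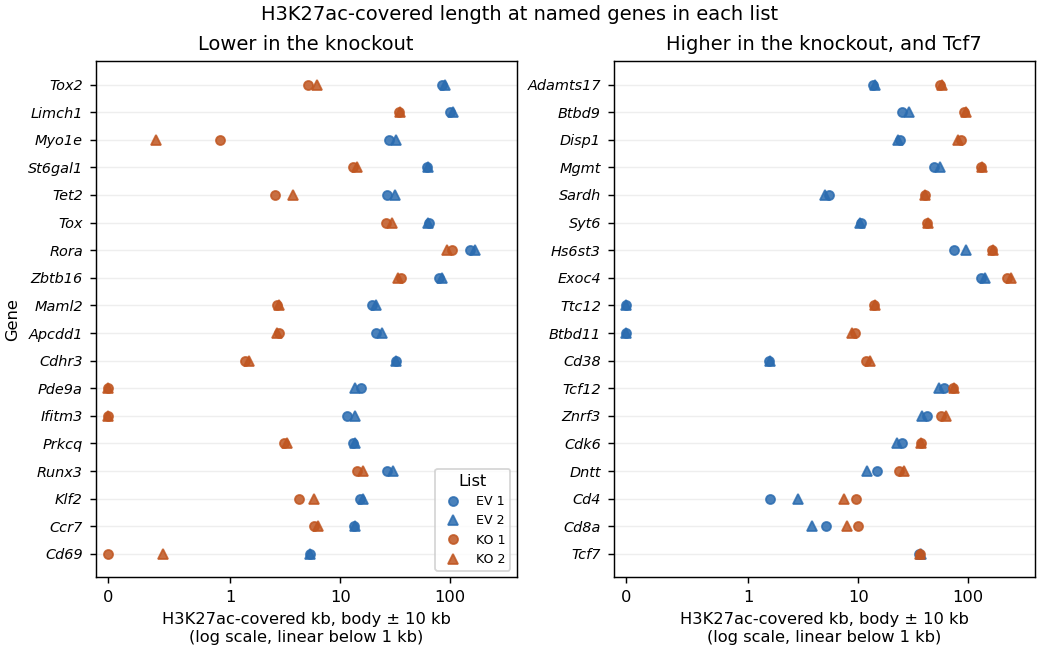
H3K27ac-covered length in kb within the gene body and 10 kb on either side (x axis, log scale above 1 kb and linear below) for named genes (y axis) in each list. Empty vector lists are blue, knockout lists orange. All genes but Tcf7 were chosen from those called lower or higher, so the lack of overlap between conditions at them follows from that choice. Over all genes tested, both knockout values lay below both others at 31.2% and above at 27.6%.

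Genes of 17 lists on T cell biology and on other cell types were then described one list at a time. Together they held 242 different genes, of which 195 were tested. Among all protein-coding genes, 9.58% had an empty vector class region within 10 kb, 6.55% a knockout class region and 57.3% a region of all 4 lists. Longer genes have more room for a region, and the median gene of all is 17.2 kb long. Of the 195, 33 were called lower and 17 higher, beside 8.44% lower and 7.18% higher over all genes tested. The counts of every list below stand beside the same background. In the fits without 1 list, 4 of the 33 (Prkcq, Maml2, Apcdd1 and Zbtb16) and 0 of the 17 were called every time; each of these fits rests on fewer lists.

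T lineage regulators stood near empty vector class regions in 10 of 18 cases (55.6%) and near knockout class regions in 3 (16.7%). The list's median gene is long, at 84.7 kb. All 18 had a region of all 4 lists. By coverage 4 were lower (Tox, Runx3, Runx1 and Ikzf3) and 2 higher (Tcf12 and Ets1) of 18, beside 8.44% and 7.18% of all genes tested, with a median log2 change of 0.02 against -0.01 over all genes tested. Tox, an HMG-box factor that CD4 T cells need for their development, had 12 empty vector class regions and went from 64.0 and 62.4 kb to 26.0 and 29.4 kb. Its log2 change was -1.18 (SE 0.0740, adjusted p = 0.00271, rising to 0.0786 without EV 1). Runx3, which silences CD4 in CD8 T cells, had 26.5 and 30.3 kb against 14.2 and 16.0 kb (adjusted p = 0.00943, at most 0.108 without 1 list). Runx1 had 105.1 and 100.1 kb against 82.0 and 89.5 kb and passed narrowly (adjusted p = 0.0488, at most 0.274 without 1 list). Ikzf3 (Aiolos) had 62.6 and 64.7 kb against 52.2 and 49.8 kb.

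Tcf12 encodes the E protein HEB, a partner of TCF-1 in early T cells. Its window held 5 knockout class regions and went from 60.1 and 53.7 kb to 72.6 and 74.1 kb (log2 change 0.37, SE 0.0661, adjusted p = 0.0290, at most 0.173 without 1 list). Ets1 had 67.2 and 66.3 kb against 77.8 and 77.7 kb, despite 1 empty vector class region. Bcl11b, which seals commitment to the T lineage, had 39.9 and 43.5 kb against 46.5 and 47.1 kb, a difference that did not pass (adjusted p = 0.153). Gata3, Satb1 and Myb had restricted regions but overlapping totals. Lef1 had 21.5 and 20.1 kb against 16.4 and 19.9 kb (adjusted p = 0.343) and 2 empty vector class regions, 1 of them over the internal start printed above and the other the TCF-1-bound region upstream. Zbtb7b had 1 empty vector class region and Gfi1 1 of the knockout class.

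Among genes of the pre-TCR and T cell surface, knockout class regions were the more frequent. Of 19, 2 (10.5%) had an empty vector class region and 6 (31.6%) a knockout class region, and of 18 tested 4 were higher and 0 lower by limma (8 and 1 at an unadjusted p under 0.05), beside 7.18% and 8.44% of all genes tested. Both knockout values lay above both others in 10 genes and below in 4, beside 27.6% and 31.2% of all genes tested. Cd4, the co-receptor of helper T cells, went from 1.57 and 2.82 kb to 9.47 and 7.45 kb (log2 change 1.77, SE 0.260, adjusted p = 0.0173, at most 0.140 without 1 list). Cd8a went from 5.10 and 3.83 kb to 9.93 and 7.93 kb (adjusted p = 0.0320, at most 0.184 without 1 list), and its promoter lay in a knockout class region covered over 3436 and 1303 bp. That region ranked low, at the 10.6 percentile, and among peaks at or above the median q-value of their list the sign at Cd8a turned (log2 change -0.25). Dntt, the terminal transferase that adds bases to receptor joints, had 14.8 and 12.1 kb against 23.7 and 25.9 kb. Rag2, a subunit of the recombinase, had 1.43 and 0.963 kb against 3.92 and 3.03 kb. The calls at Dntt and Rag2 were also absent in each fit without 1 list. Il2ra (CD25), the marker of the DN3 stage, had 35.2 and 36.1 kb against 31.4 and 31.0 kb and did not pass (adjusted p = 0.0800). Cd3e and Cd247 had 1 knockout class region each without passing, Cd247 with 1 of the empty vector class as well, and Cd6 had 1 and was too low to test.

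T cell receptor signalling had near-equal counts, with 6 of 16 genes (37.5%) near an empty vector class region and 5 (31.3%) near one of the knockout class. Prkcq, the kinase PKC-theta that relays receptor signals to NF-kB, was lower. It had 3 empty vector class regions, with 13.1 and 13.7 kb against 3.10 and 3.32 kb (log2 change -1.91, SE 0.0805, adjusted p = 0.00123), and the call held without any one list. Nfatc1, a calcium-driven factor, was higher at 16.1 and 20.7 kb against 32.9 and 35.2 kb (adjusted p = 0.0185, at most 0.146 without 1 list), with 2 knockout class regions and 1 of the empty vector class. Fyn, a kinase near the receptor, was higher at 55.9 and 56.3 kb against 66.5 and 72.7 kb (adjusted p = 0.0318), but the sign turned among stronger peaks (log2 change -0.13). Lck, Lcp2, Themis, Nfatc2 and Ptprc had a restricted region each or more and did not pass.

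In the Notch pathway 1 of 11 genes had a region of each restricted class, Maml2 and Numb, which is near the background. Maml2, a coactivator of Notch, was the 1 gene called. It went from 19.4 and 21.2 kb to 2.69 and 2.79 kb (log2 change -2.68, SE 0.0851, adjusted p = 0.000731) with 10 empty vector class regions, all within the gene body, and CTCF peaks at 6 in each of the 4 lists. Among Wnt feedback genes and targets, 2 of 10 tested were lower and 2 higher. Apcdd1, a membrane inhibitor of Wnt signalling, had 8 empty vector class regions and went from 21.2 and 23.8 kb to 2.80 and 2.65 kb (log2 change -2.83, SE 0.0925, adjusted p = 0.000733), a call held without any one list. Axin2, a scaffold that restrains beta-catenin, went from 6.76 and 6.29 kb to 2.93 and 2.87 kb (adjusted p = 0.00400, at most 0.0776 without 1 list). Znrf3, which removes Wnt receptors from the surface, and Wls, which carries Wnt ligands out, were higher, Znrf3 at 41.8 and 37.8 kb against 56.0 and 62.4 kb (adjusted p = 0.0166, at most 0.145 without 1 list).

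Genes of the activation response and of cytokine and homing receptors were lower more often than higher. In the first, 4 of 17 tested were lower and 1 higher, and in the second 5 of 13 were lower and 0 higher (also 0 by limma at an unadjusted p under 0.05), against 8.44% and 7.18% of all genes. Cd69, an early activation antigen that also holds T cells in tissue, had 5.31 and 5.36 kb with the empty vector against 0 and 0.454 kb (adjusted p = 0.00701, at most 0.122 without 1 list). Egr3, an immediate early factor, had 1.45 and 1.65 kb against 0 in both knockout lists. Egr1 and Dusp5 were lower too, and Socs3, a brake on cytokine receptors, was higher at 12.7 and 12.3 kb against 20.1 and 17.3 kb (adjusted p = 0.0256). Junb and Dusp2 had 1 restricted region each.

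Klf2, which drives expression of homing receptors, went from 15.1 and 16.1 kb to 4.21 and 5.76 kb (log2 change -1.57, SE 0.155, adjusted p = 0.00646, at most 0.115 without 1 list). Ccr7, a receptor that guides T cells through lymphoid tissue, went from 13.2 and 13.8 kb to 5.82 and 6.26 kb (adjusted p = 0.00355, at most 0.0748). Il2rb, the shared beta chain for IL-2 and IL-15, went from 7.36 and 7.73 kb to 1.62 and 2.40 kb (adjusted p = 0.00653, at most 0.118). Ccr4 and the integrin gene Itgb7 were lower at an adjusted p of 0.00897 each. The median log2 change was -0.19 over the activation genes and -0.11 over the receptors, against -0.01 over all genes tested. Housekeeping genes had a median of similar size, -0.17, with 1 of 14 called lower and 0 higher. By limma at an unadjusted p under 0.05, 5 of the 14 were lower and 0 higher. Both knockout values lay below both others in 9 of the 14 and above in 4, beside 31.2% and 27.6% of all genes tested. The same counts were 10 and 4 of the 17 activation genes tested, and 7 and 0 of the 13 receptor genes tested. Il4ra, Il6ra and Il6st had restricted regions and did not pass.

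Genes of natural killer and innate lymphoid cells showed the lowest median of the 17 lists, a log2 change of -0.58. Of 12, 5 (41.7%) had an empty vector class region and 0 a knockout class region, and of 8 tested 4 were lower (7 by limma at an unadjusted p under 0.05), while in all 8 both knockout values lay below both others. Over all genes tested, 8.44% were called lower and 31.2% had both knockout values below. Zbtb16, which encodes PLZF, the factor of innate-like lymphocytes, went from 78.6 and 85.1 kb to 35.6 and 33.9 kb (log2 change -1.22, SE 0.0603, adjusted p = 0.00159) with 8 empty vector class regions, and was called without any one list. Nkg7, a protein of cytotoxic granules, went from 4.88 and 5.54 kb to 2.15 and 2.07 kb (adjusted p = 0.00438, at most 0.0751 without 1 list). Tbx21 (T-bet) went from 12.6 and 13.1 kb to 8.01 and 8.66 kb (adjusted p = 0.0139, at most 0.123), though within the gene body alone the log2 change was 0.03. Rora is the fourth. Klrb1c and Nfil3 had 1 empty vector class region each and did not pass, and the bodies of the markers Ncr1, Klrb1c and Eomes had no acetylation in any list.

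**Figure D5:**
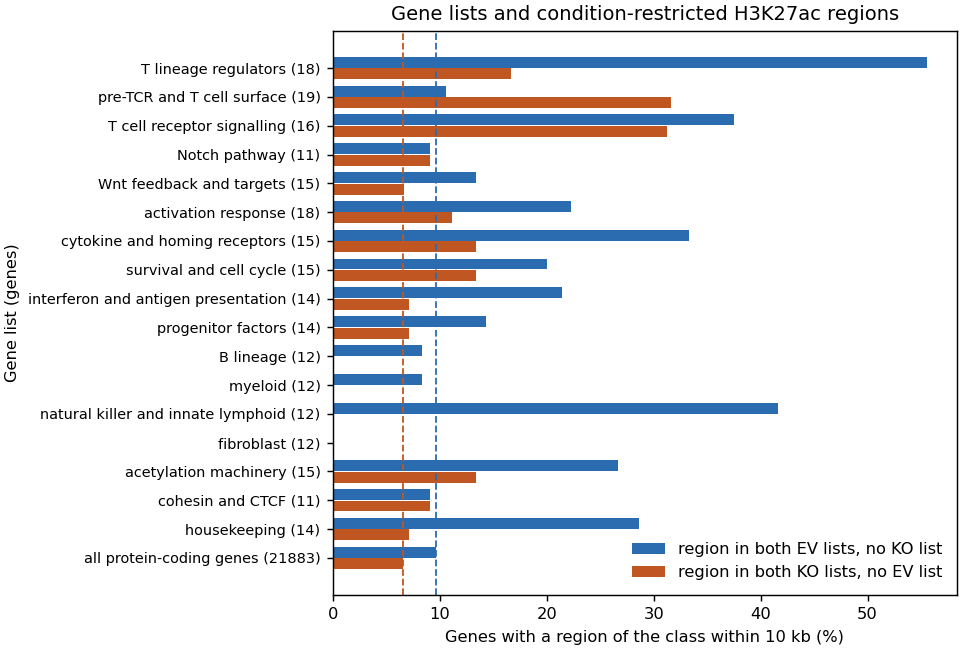
Share of genes (x axis, percent) in each list (y axis, with the number of genes) that have a region of the empty vector class (blue) or of the knockout class (orange) within 10 kb. Dashed lines are the shares over all protein-coding genes, 9.58% and 6.55%; T lineage regulators reach 55.6% in blue.

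The lists for other lineages and for shared functions had smaller counts. Of progenitor factors, 2 of 5 tested were lower: Bcl11a, a factor of stem and B cells, at 3.85 and 4.01 kb against 0.494 and 0.205 kb (adjusted p = 0.00403, at most 0.0919 without 1 list), and Hoxa9, at 0.643 and 1.54 kb against 0 and 0. Tal1 had a knockout class region with 0 against 0.803 and 0.807 kb and was too low to test. Cd22 and Vpreb3 of the B lineage were lower and Cd79b higher. Cebpb and Fcgr3 were the 2 myeloid genes called, both lower, and Itgam had 1 empty vector class region. Acta2 was lower and Pdgfrb higher among 3 fibroblast genes tested.

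Of 12 tested genes of interferon response and antigen presentation, 2 were lower and 1 higher. Irf9, a factor of the interferon response, and the class I gene H2-D1 were lower, while H2-K1 had an empty vector class region and did not pass, and Ifit1 had one and was too low to test. H2-D1 and H2-K1 are close copies of each other, so their peaks may be shared between them by mapping. In survival and cell cycle genes, Cdk6, a kinase of G1, was higher at 25.1 and 22.4 kb against 37.4 and 36.9 kb (adjusted p = 0.00947, at most 0.0947) with 3 knockout class regions, and the apoptosis gene Bak1 was lower. Bcl2l1 and Rb1 had restricted regions only.

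Among genes of the acetylation machinery, which writes, reads and removes the mark, all 15 had a region of all 4 lists, 2 were higher and 0 lower by limma (2 and 1 at an unadjusted p under 0.05). The deacetylase gene Hdac4 went from 91.7 and 88.2 kb to 114.5 and 111.1 kb. Kat2a, Kat2b, Hdac1 and Hdac7 had restricted regions and did not pass. Pds5a was the 1 cohesin gene called, lower at 6.60 and 6.32 kb against 3.79 and 3.59 kb (adjusted p = 0.00789), but within the gene body alone its log2 change was 0.02. Stag1 had 1 knockout class region. Housekeeping genes were not free of change: Polr2a was lower at 6.69 and 9.55 kb against 3.27 and 3.58 kb (adjusted p = 0.0213, at most 0.158 without 1 list). The empty vector class region in the Polr2a window lay outside the gene body, over the promoter of the neighbouring gene Zbtb4. It was covered over 1713 and 2660 bp with the empty vector and 0 bp in both knockout lists. In the housekeeping list 4 of 14 (28.6%) had an empty vector class region, namely Actb, Tubb5, Gusb and Polr2a. Only 1, Eef1a1, had a knockout class region. A list unrelated to T cells thus reached a share of 28.6% within 10 kb. Within gene bodies alone the share was 1 of 14 (7.14%), near the 5.79% of all protein-coding genes. For T lineage regulators it was 10 of 18 (55.6%) in the body alone.

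Chromosome Y carried H3K27ac peaks in the knockout lists only. The 4 regions there, at Kdm5d, Uty, Ddx3y and nearest to Gm52481, were held by both knockout lists and by no empty vector list. The one at Uty (chrY:1244924-1245739) was covered over 816 and 569 bp. NIPBL had 0 and 0 peaks on this chromosome with the empty vector against 3 and 0 in the knockout, and the CTCF and SMC1 lists had none in either condition. A difference in acetylation and a difference between the cell populations in this chromosome cannot be told apart here. Leaving chromosome Y out changed the knockout class from 2402 to 2398 regions.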

How the data were processed

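Chromatin of Scid.adh cells was fixed in 1% formaldehyde and sequenced as read pairs (38 and 37 bp), per the labels' protocols. Bowtie2, MACS2, bedtools and the mm10 build (GRCm38) are named per the submitters' processing notes, with no version. Aligner settings, peak thresholds and input controls are not stated in the sources at hand. The authors deposited peak positions for every list and a −log10 q-value per peak for H3K27ac and NIPBL. The deposited −log10 q-values are the authors' own and served to order or select peaks inside a list. The scores and fold enrichments that the authors deposited were not used.

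Peaks of the 4 H3K27ac lists were merged with a gap of 0, and an overlap of 1 bp placed a region in a list. A region's rank is the lower of its percentile ranks over the lists that hold it. Gene bodies (21883 protein-coding) and 32851 promoter windows of 27025 genes came from RefSeq GRCm38.p6. Of 244 entries in the gene lists, 243 matched. Covered bp per region and per gene were fitted with limma with a mean trend and Benjamini-Hochberg adjustment over all features tested, without a replicate block. Single values were compared with 2-sided exact permutation tests over the 4 lists.

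The named genes were Tcf7, listed genes with a restricted region, the 10 highest-ranked regions and the 10 genes with most regions of each class, and the 10 lowest p-values per direction for shared regions and for genes. Other genes, including listed genes called without a restricted region, were picked with their values in view. Some genes that meet these rules are left out of the text. The members, the lists and the tests were chosen with earlier results of these data known. The code was tested on simulated data. Fits used limma 3.58.1 in R 4.3.3, and all else scipy 1.17.1, numpy 2.4.6 and pandas 2.3.3 under Python 3.11.15, with matplotlib 3.10.9 for plots.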

Additional observations from a re-analysis of the deposited data

How the results depend on the processing

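Each list is 1 sample of unknown depth, there are 2 per condition, and a peak's absence can mean a signal just under the caller's threshold. Alternatives were merging within 500 bp, peaks at or above the median −log10 q-value of their list, lists of equal length, chromosomes 1 to 19 and X, coverage of at least 50% of a region, other pseudocounts (100 and 2000 bp), no filter on low values, centred lists, gene bodies alone, sites of either TCF-1 list, and fits without each list. Among peaks at or above the median q-value the classes held 1639, 833 and 15036 regions (empty vector, knockout, all 4), and the fits called 253 regions narrower, 286 wider, 644 genes lower and 524 higher. TCF-1 sites then lay in 1.22%, 0.960% and 18.5% of the classes, and with sites of either list in 0.930%, 0.791% and 22.6%. The ratio of the classes, 1.66, was 1.08 with equal list length. It was 0.829 without KO 1, 0.947 without KO 2 and 2.81 at most, without EV 1. Leaving out a list makes its class depend on the other list alone, so that the class grows by construction.

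Without 1 list the empty vector class ranged from 5083 to 9125 regions, the knockout class from 3245 to 6132 and the class of all 4 from 24965 to 25561. The shares with a TCF-1 site ranged from 0.0986% to 0.210%, from 0.108% to 0.283% and from 11.1% to 11.4%. Region calls fell to 0 in both directions in each such fit, and gene calls to between 114 and 287 lower and between 92 and 184 higher. Without the filter on low values 584 genes were lower and 430 higher, and with gene bodies alone 416 and 415. The difference in covered length of shared regions ranged from 0.815% to 2.94% and that at TCF-1 sites from -7.80 to -5.81 bp without 1 list. Each kept its direction in its 8 alternatives. Among listed genes, 53 had an empty vector class region and 28 a knockout class region within 10 kb, and 36 and 19 in the body alone. The cause of these shifts was not tested.

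The labels number replicates 1 and 2 in both conditions. Deviations of same-numbered lists had a correlation of 0.0087 over regions and -0.0029 over genes, and the main fits did not treat the numbers as pairs. Whether same-numbered lists were prepared together is not stated, and these correlations cannot settle it. With a replicate block in limma the region calls were 0 in both directions (2445 narrower and 2811 wider at an unadjusted p under 0.05), and the gene calls 885 lower and 798 higher.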

Other observations

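Annotated microRNA genes lay in a few restricted regions. Mir7661, Mir7047, Mir6993 and Mir496b lay in regions of the empty vector class, and Mir7662 and Mir7094-1 in regions of the knockout class. Shared regions of 10 kb or more, the length range of broad enhancer clusters and highly active genes, were called at a higher share than short ones, a difference that was not tested. Of 1773 such regions, 85 (4.79%) were narrower in the knockout and 124 (6.99%) wider, against 13 (0.203%) and 12 (0.187%) of 6416 regions under 2 kb. Both knockout values lay above both others in 39.7% of the long regions and 22.3% of the short ones. The change itself was smaller in long regions, with a median absolute log2 change of 0.180 against 0.330 in short ones. Lists of the same condition also differed less in long regions, by a median absolute log2 difference of 0.0979 (empty vector) and 0.0926 (knockout). In short regions these medians were 0.254 and 0.281, and their part in the calls was not tested. The knockout lists also held more peaks wider than 10 kb, 1065 and 1105 against 981 and 934 with the empty vector.

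Regions over a promoter window varied less than the rest. Their log2 change ran from -0.52 to 0.45 between the 5th and 95th percentiles, against -1.33 to 1.41 for shared regions without a promoter window. Lists of the same condition also differed less at promoters, by a median absolute log2 difference of 0.113 (empty vector) and 0.123 (knockout). Without a promoter window these medians were 0.230 and 0.247. After Ttc12, Cpne2 and Pgbd1, the promoters of the knockout class that ranked highest were those of Pacs1, Angptl7, Zfp65 and Nudt17. Angptl7, a secreted angiopoietin-like protein, had 2857 and 2393 bp there. Among promoters of the empty vector class below the top 10 were those of Fam3c, Arl10, Plekhg5, Bcr, Nupr1, Tspyl3, Farp2 and Pck2. Nupr1, a stress-induced chromatin protein, had 1919 and 2417 bp, and Pck2, the mitochondrial form of a gluconeogenic enzyme, had 1892 and 2114 bp. These genes were chosen after their values were seen.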
